A study of Homo sapiens with 5 samples.

Results

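The Kunitz-type serine protease inhibitor SPINT2 and 7 genes tied to it in the activation of hepatocyte growth factor were examined in HEK293, an established line from human embryonic kidney. The 8 genes are the inhibitors SPINT2 and SPINT1, the membrane-bound serine proteases ST14, PRSS8 and HPN, the secreted protease HGFAC, the growth factor HGF and its receptor MET. These are 8 of 19775 genes named on the array, and all probe sets annotated to them were taken, 18 of 54675. SPINT2 was selected on its higher signal on the PRL-1 arrays in this same comparison, so its difference between the groups is given as a description with no test. The other genes were chosen for their known relation to SPINT2, with earlier results of these data known.

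Total RNA of a stable line that carries the empty pcDNA4 vector (HEK293-vector, 3 arrays) was compared with RNA of a stable PRL-1 line made with pcDNA4-PRL-1 (HEK293-PRL-1, 2 arrays), on HG-U133 Plus 2.0 GeneChips. PRL-1, the product of PTP4A1, is a protein tyrosine phosphatase. Both lines were grown in the same serum-containing medium, and each array held RNA of a separate culture. Each group stands for 1 stable line, so effects of the transgene cannot be told apart from other differences of that line, and p-values cover only the spread between its cultures. The sources used here do not say whether the lines are clonal. A further PRL-1 array was left out by the authors because qRT-PCR did not show raised PRL-1 in that RNA.

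SPINT2 and SPINT1, also known as HAI-2 and HAI-1, carry Kunitz domains that block trypsin-like serine proteases at the cell surface. Their targets include matriptase (ST14), which can activate prostasin (PRSS8) and other surface proteases in epithelia, hepsin (HPN), and the HGF activator (HGFAC). HGF is secreted as an inactive chain, is cleaved by such proteases, and then binds the receptor tyrosine kinase MET.

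Signals are MAS5 intensities on a linear scale, and a signal of 100 on at least 2 arrays was taken as the lower limit for a test, because values under it lie near background. Signals of different probe sets are not comparable with each other, so only differences between arrays are read. Vector replicate 3 stood apart, with log2 signals that correlated at 0.938 to 0.947 with the other arrays, which correlated at 0.954 to 0.964 among themselves. Its median signal of 166 was the highest of medians between 124.2 and 166. PTP4A1 itself gave log2 fold changes of 0.06 to 0.15 in its 4 tested probe sets (limma adjusted p from 0.737 to 0.892). A rise of PTP4A1 on the PRL-1 arrays was thus not called, and whether these probe sets detect RNA of the construct was not tested. They give no check of the labels, so directions are those of the arrays labelled PRL-1.

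SPINT2 was represented by the probe set 210715_s_at. The 3 vector arrays gave signals of 501, 448 and 508, and the 2 PRL-1 arrays gave 2436 and 2342. Both PRL-1 arrays were thus higher than all 3 vector arrays, and the lower PRL-1 array exceeded the highest vector array 4.61-fold. The group means were 486 ± 32.7 (SD, n = 3) and 2389 ± 66.1 (SD, n = 2). The log2 fold change was 2.30, or 4.93-fold, and it lay between 2.24 and 2.33 with each array left out in turn. This difference, on which SPINT2 was selected, ranked 19 of 33818 tested probe sets (20 to 41 with 1 array left out) and 5 of the 31889 with a vector mean of at least 100. In bulk RNA, more cells of a kind and more RNA per cell cannot be told apart. A single probe set stood for SPINT2, so its difference could not be compared with that of another probe set.

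**Figure D1:**
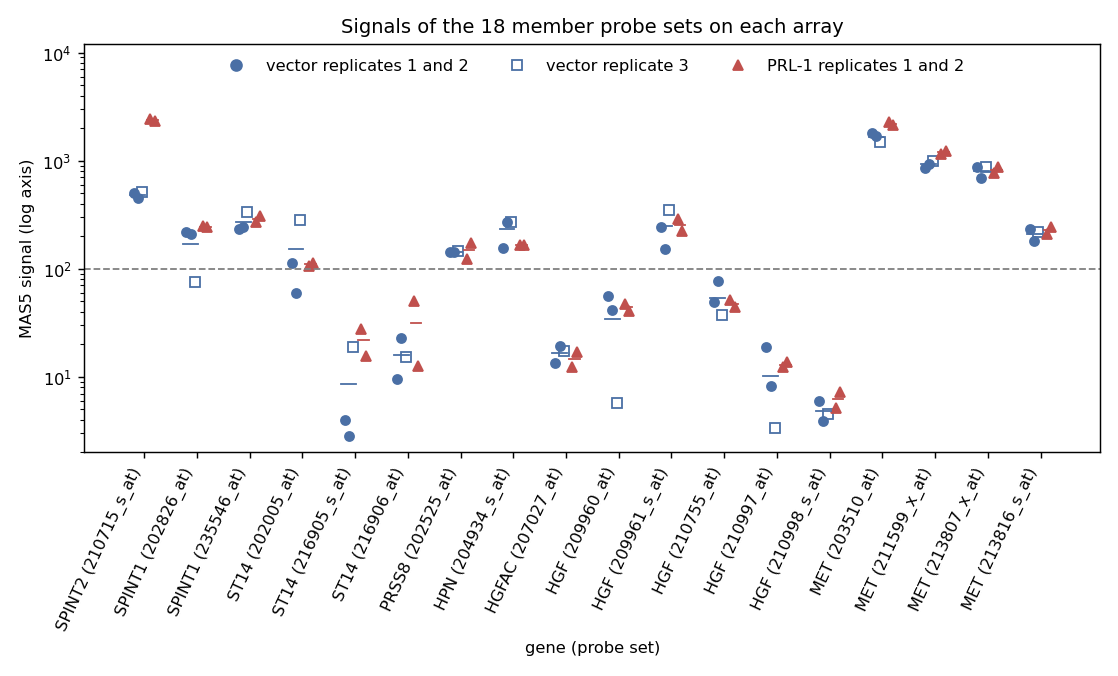
MAS5 signal (log axis) of the 18 member probe sets on each of the 3 vector arrays (blue, replicate 3 as an open square) and the 2 PRL-1 arrays (red triangles), with bars at the group means and the lower limit of 100 dashed. SPINT2 separates widely, with 448 to 508 on the vector arrays and 2342 to 2436 on the PRL-1 arrays, while 7 probe sets of ST14, HGFAC and HGF lie under the dashed line on all arrays.

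Of the 17 probe sets of the other genes, 10 were tested and 7 were under 100 on all 5 arrays. With limma, 0 of the 10 tested were called at adjusted p 0.05, where 0.192% of the 33818 tested probe sets were called (0.0591% higher and 0.133% lower). At an unadjusted p under 0.05 there were 2 of the 10, both of MET, beside 9.72% of all tested probe sets, and the methods' t-test also called 0 and had 2 at that level, beside 8.59%. Without vector replicate 3, again 0 of the 10 were called, where 0.926% of tested probe sets were. The log2 fold changes of the 10 over all arrays ran from -0.44 to 0.69 with a median of 0.10, beside a median of -0.04 over all tested probe sets. The groups did not overlap for 3 of the 10, all higher on the PRL-1 arrays, where 12.8% of tested probe sets were higher without overlap and 28.9% did not overlap in either direction. The 3 were a SPINT1 probe set and 2 MET probe sets.

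SPINT1, the paralog of SPINT2 with a similar range of targets, had 2 probe sets that differed on vector replicate 3. Through 202826_at the signal was 217, 211 and 75.4 on the vector arrays and 247 and 242 on the PRL-1 arrays. The PRL-1 arrays were higher than all vector arrays, and the lower of them exceeded the highest vector array 1.11-fold. The log2 fold change was 0.69 (95% interval -0.33 to 1.72, limma adjusted p = 0.665), and it was 0.19 without vector replicate 3 (-0.28 to 0.66), the array with the low signal. Through 235546_at the signal was 235, 245 and 336 on the vector arrays and 269 and 305 on the PRL-1 arrays. Here vector replicate 3 was the highest array and the groups overlapped, with a log2 fold change of 0.09 (-0.42 to 0.61, adjusted p = 0.923). An increase of the size seen for SPINT2, at 2.30, lay outside the intervals of both SPINT1 probe sets.

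The proteases gave dim signals. Matriptase, encoded by ST14, was tested through 202005_at, with 112, 59.9 and 283.8 on the vector arrays and 106 and 113 on the PRL-1 arrays. The vector arrays spread over both sides of the PRL-1 arrays. The log2 fold change was -0.18 (-1.55 to 1.19, adjusted p = 0.949), and it turned to 0.42 without vector replicate 3 (adjusted p = 0.771). The other 2 ST14 probe sets lay between 2.81 and 50.7 and were not tested. Prostasin (PRSS8), a membrane-anchored protease that acts with matriptase, gave 141, 142 and 144 on the vector arrays and 123 and 172 on the PRL-1 arrays. The groups overlapped, with a log2 fold change of 0.03 (-0.67 to 0.73, adjusted p = 0.982). Hepsin (HPN), a transmembrane protease first known from liver, gave 154, 270 and 269 on the vector arrays and 166 and 165 on the PRL-1 arrays. Vector replicate 1 was lower than both PRL-1 arrays and the remaining vector arrays were higher. The log2 fold change of HPN was -0.44 (-1.13 to 0.25, adjusted p = 0.684), and -0.71 without vector replicate 1 (-1.31 to -0.10, adjusted p = 0.479). HGFAC, the activator of HGF made mainly by liver, lay between 12.3 and 19.1 on all arrays and was not tested.

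The ligand HGF, typically made by mesenchymal cells, had 5 probe sets, of which 209961_s_at was tested. Its signal was 243, 153 and 348 on the vector arrays and 289 and 223 on the PRL-1 arrays. The PRL-1 arrays lay within the range of the vector arrays, and the log2 fold change was 0.12 (-0.65 to 0.88, adjusted p = 0.938). It was -0.19 without vector replicate 2 (adjusted p = 0.864) and 0.40 without vector replicate 3 (adjusted p = 0.582). The other 4 HGF probe sets lay between 3.34 and 76.6, under the limit on all arrays, so the probe sets of HGF disagreed on whether a signal was above background.

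MET, the receptor of HGF, was the member with the most tested probe sets, 4 of 4. Through 203510_at the signal was 1808, 1707 and 1480 on the vector arrays and 2280 and 2127 on the PRL-1 arrays. Both PRL-1 arrays were higher than all vector arrays. The log2 fold change was 0.41 ± 0.13 (SE; 95% interval 0.12 to 0.70), or 1.33-fold, with an unadjusted p of 0.011 and a limma adjusted p of 0.358. Through 211599_x_at the signal was 851, 935 and 1002 on the vector arrays and 1143 and 1237 on the PRL-1 arrays, again without overlap, with a log2 fold change of 0.36 (0.06 to 0.66, adjusted p = 0.431). MET was not called through either probe set. The remaining probe sets overlapped between the groups. Through 213807_x_at the log2 fold change was 0.02 (-0.33 to 0.38, adjusted p = 0.972), from 872, 688 and 870 on the vector arrays to 761 and 882 on the PRL-1 arrays. Through 213816_s_at it was 0.12 (-0.41 to 0.65, adjusted p = 0.902), from 232, 180 and 217 to 211 and 243. The 4 MET probe sets thus gave estimates from 0.02 to 0.41, whose intervals overlap, and a doubling (log2 fold change of 1) lay outside the interval of each.

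**Figure D2:**
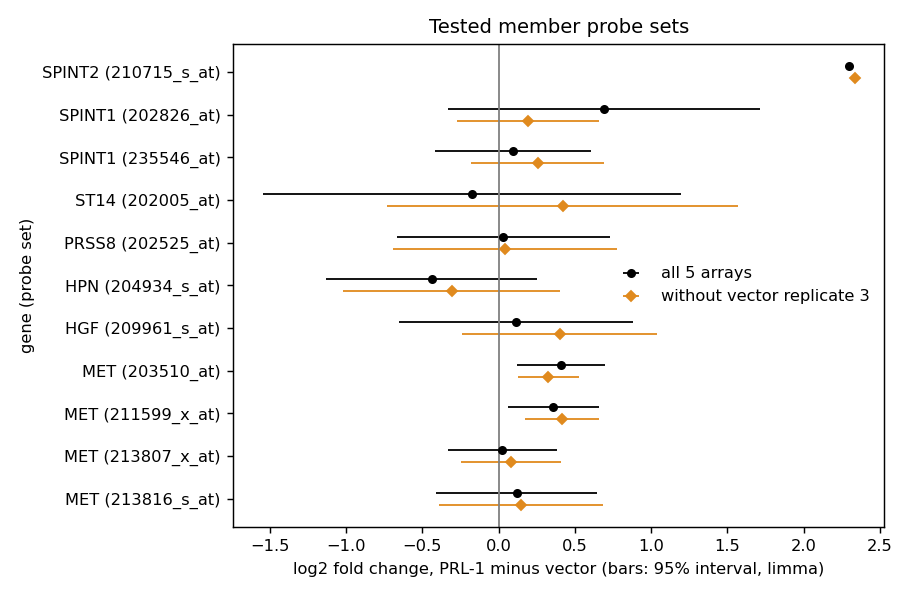
Log2 fold change (PRL-1 minus vector) of the 11 tested member probe sets, with 95% intervals from limma for all but SPINT2, over all 5 arrays (black circles) and without vector replicate 3 (orange diamonds). SPINT2 stands at 2.30, the interval of MET 203510_at runs from 0.12 to 0.70, and the estimate of ST14 moves from -0.18 to 0.42 when vector replicate 3 is left out.

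RefSeq promoter windows (GRCh38.p14) matched 5 of the 8 genes, namely SPINT1, HPN, HGFAC, HGF and MET. The 250 bases before the start are shown for the first listed start of SPINT1 and for MET, the tested genes among these with a probe set whose groups did not overlap, with matches to the GC box GGGCGG or its reverse complement CCGCCC in capitals.
SPINT1, chr15:40843798-40844047, + strand: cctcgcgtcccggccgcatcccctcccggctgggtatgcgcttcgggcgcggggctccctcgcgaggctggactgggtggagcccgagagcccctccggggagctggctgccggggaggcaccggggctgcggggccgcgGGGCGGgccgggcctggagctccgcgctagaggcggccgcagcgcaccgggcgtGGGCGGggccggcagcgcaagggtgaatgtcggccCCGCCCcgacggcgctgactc
MET, chr7:116671946-116672195, + strand: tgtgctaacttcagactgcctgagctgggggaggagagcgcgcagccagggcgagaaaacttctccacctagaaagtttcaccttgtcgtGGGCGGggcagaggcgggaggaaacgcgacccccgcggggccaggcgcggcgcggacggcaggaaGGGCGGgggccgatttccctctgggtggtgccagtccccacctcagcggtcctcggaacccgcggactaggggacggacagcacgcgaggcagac
The SPINT1 window shown held 3 GC boxes, a GC content of 80.4% and 35 CpG dinucleotides. The window of the further SPINT1 start (chr15:40844227-40844476) held 0 GC boxes, a GC content of 70.4% and 22 CpG dinucleotides. The MET window held 2 GC boxes, a GC content of 68.4% and 24 CpG dinucleotides. A GC box was found in 42.6% of 35116 windows of this length, whose median GC content was 58%. The CACCTG E-box, searched on both strands, was in neither window shown and in 17.5% of all windows. It was found in the window of HPN, that of HGFAC and that of the further SPINT1 start, and a match is a description of letters only.

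The genes that flank SPINT2 on chromosome 19 were examined to see how far the difference reached. In the order of the GRCh38.p14 gene table, the 5 nearest tested genes on each side gave log2 fold changes with a median of 0.06. With limma, 0 of the 10 were called (smallest adjusted p 0.428), where 0.247% of 14546 tested genes were called. An unadjusted p under 0.05 was found for 1 of the 10, beside 11.4% of all tested genes. The next gene before SPINT2 was PPP1R14A, an inhibitor of myosin phosphatase. Its signal was 5.02, 12.1 and 4.24 on the vector arrays and 136 and 126 on the PRL-1 arrays. All vector arrays were under the limit of 100 and both PRL-1 arrays were above it. With the vector arrays set to 100, the group mean was 1.31-fold higher on the PRL-1 arrays. PPP1R14A was not called (interval of the log2 fold change -1.21 to 9.93, adjusted p = 0.611) and entered the test through the PRL-1 arrays alone. On the other side the next gene was YIF1B, a membrane protein of the secretory pathway, with 1780, 1713 and 1882 on the vector arrays and 1757 and 1603 on the PRL-1 arrays. Its groups overlapped, and the log2 fold change was -0.09 (-0.36 to 0.17, adjusted p = 0.832). The other 8 neighbours lay between -0.48 for FAM98C (adjusted p = 0.428) and 0.24 for SPRED3 (adjusted p = 0.843). C19orf33, which lies close to SPINT2, gave 5.03 to 14.9 on all arrays and was not tested.

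**Figure D3:**
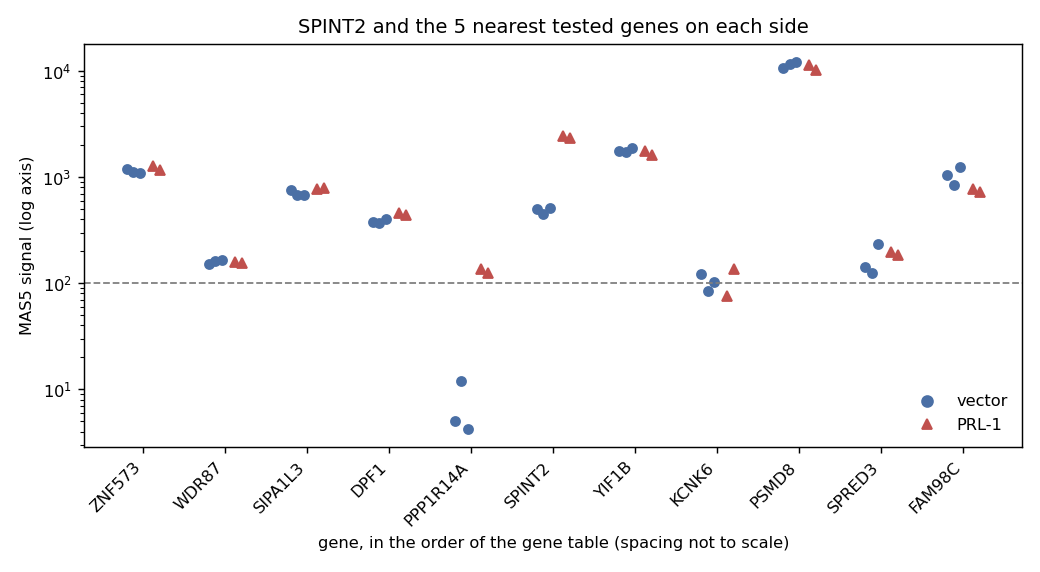
MAS5 signal (log axis) of SPINT2 and the 5 nearest tested genes on each side on the 3 vector arrays (blue circles) and the 2 PRL-1 arrays (red triangles), in gene order without scale, with the lower limit of 100 dashed. SPINT2 and PPP1R14A show wide gaps between the groups, PPP1R14A from 4.24 to 12.1 on the vector arrays to 126 to 136 on the PRL-1 arrays, while YIF1B overlaps.

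The genes whose pattern over the 5 arrays was most like that of SPINT2 were found by the Euclidean distance between log2 signals, each probe set centred on its own mean. The nearest was EEF1A2, an elongation factor of translation, at a distance of 0.22. It gave 1112, 1074 and 1274 on the vector arrays and 5385 and 4810 on the PRL-1 arrays. KIF1A, a motor of axonal transport, followed at 0.36, then LOC100996385 at 0.42, LOC105376166 at 0.43 and TIRAP, an adaptor of Toll-like receptors, at 0.57. The probe sets of both LOC genes gave 27.8 to 31.4 on the vector arrays and passed the lower limit through the PRL-1 arrays alone. KIF1A gave 76.9 to 102 and TIRAP 89.3 to 149 on the vector arrays, near background, and 490 to 585 and 491 to 541 on the PRL-1 arrays. The KIF1A probe set, too, passed the lower limit only with the PRL-1 arrays counted. The distance mainly reflects the difference between the groups. Among the other members, MET through 203510_at was nearest to SPINT2, at 2.09, in place 1564 of 33817.

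The wider pathway was described through 15 lists of 227 genes, of which 139 were measured. With limma, 1 of these 139 was called over all probe sets, where 0.247% of 14546 tested genes were called. The gene was MAL2, a membrane protein of epithelial transcytosis. Its signal fell from 1713, 1558 and 1747 on the vector arrays to 99.7 and 93.1 on the PRL-1 arrays (adjusted p = 2.61e-05). With the PRL-1 arrays set to 100, the group mean was 16.7-fold lower. Of the 139, 24 had an unadjusted p under 0.05, as did 11.4% of all tested genes. Over all tested genes the median log2 fold change was -0.03, with 44.8% above 0.

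Among other genes with a Kunitz domain, 7 of 14 were measured, 0 were called, 1 had an unadjusted p under 0.05, and the median log2 fold change was 0.02. APP, the amyloid precursor, whose longer isoforms carry a Kunitz domain, gave 1518, 3812 and 3939 on the vector arrays and 8474 and 6436 on the PRL-1 arrays. The groups did not overlap, although the vector arrays spread widely (log2 fold change 1.38, 95% interval 0.55 to 2.22, adjusted p = 0.287), and its other 2 tested probe sets gave 0.13 and 0.77. Serpins, which inhibit many of the same proteases, had 6 of 14 measured, 0 called, 1 with an unadjusted p under 0.05 and a median of -0.17. The lowest of these was SERPINI1, neuroserpin, with 276, 197 and 383 on the vector arrays and 118 and 165 on the PRL-1 arrays (-0.98, adjusted p = 0.384).

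Of 16 other type II transmembrane serine proteases, the family of ST14 and HPN, 3 were measured, 0 were called and 2 had an unadjusted p under 0.05. TMPRSS6, matriptase-2 of the iron pathway, gave 310, 272 and 319 on the vector arrays and 178 and 160 on the PRL-1 arrays, without overlap, at -0.83 (-1.31 to -0.35, adjusted p = 0.271). TMPRSS15, the enteropeptidase, gave -0.54 (adjusted p = 0.489). Other trypsin-like proteases had 18 of 26 measured, 0 called and 2 with an unadjusted p under 0.05, with a median of -0.22 and 4 members above 0. PRSS23, a secreted protease, gave 1187, 1148 and 1176 on the vector arrays and 1778 and 1501 on the PRL-1 arrays, without overlap (0.48, adjusted p = 0.275). PLAT, a plasminogen activator, gave 0.39 (adjusted p = 0.566). The other plasminogen activator PLAU and the kallikrein KLK8 were under 100 on both PRL-1 arrays, and neither was called. With the PRL-1 arrays set to 100, the group means were 1.40-fold lower for PLAU and 1.73-fold lower for KLK8. The 95% intervals of the log2 fold change were -1.42 to 0.36 for PLAU (adjusted p = 0.703) and -1.98 to -0.19 for KLK8 (adjusted p = 0.426).

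Substrates of the membrane proteases had 7 of 18 measured, 0 called, 3 with an unadjusted p under 0.05 and a median of 0.29 with 4 members above 0. EPCAM, an epithelial adhesion molecule that matriptase can cleave, gave 8293, 8272 and 9359 on the vector arrays and 11567 and 11580 on the PRL-1 arrays. The PRL-1 arrays were higher than all vector arrays, at 0.42 (0.17 to 0.67, adjusted p = 0.278), and EPCAM was called without vector replicate 3 (adjusted p = 0.027). CDCP1, a surface glycoprotein cleaved by matriptase, gave 115, 43.6 and 61.6 on the vector arrays, near background, and 218 and 253 on the PRL-1 arrays (adjusted p = 0.288), and it passed the lower limit only with the PRL-1 arrays counted. MST1, the HGF-like ligand activated by hepsin and matriptase, gave 288, 505 and 538 on the vector arrays and 174 and 284 on the PRL-1 arrays (-0.94, adjusted p = 0.398), whereas its other tested probe set gave 0.29 (adjusted p = 0.797).

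Around the receptor, the HGF family and MET co-receptors had 17 of 21 measured, 0 called, 1 with an unadjusted p under 0.05 and a median of -0.10. CD44, a co-receptor of MET, gave 0.45 (adjusted p = 0.617), and its other tested probe sets gave -0.14 to 0.94. PLXNB2, a plexin receptor, gave -0.40 (adjusted p = 0.529). Adaptors and effectors of MET signalling had 32 of 41 measured, 0 called, 7 with an unadjusted p under 0.05, a median of 0.06 and 21 members above 0. AKT2, a kinase downstream of PI3K, gave 1509, 1721 and 1997 on the vector arrays and 3209 and 2627 on the PRL-1 arrays. It did not overlap between the groups, at 0.75 (0.40 to 1.09, adjusted p = 0.193), and was called without vector replicate 3 (0.85, adjusted p = 0.018). The other tested AKT2 probe sets gave log2 fold changes from -0.01 to 1.52 over all arrays. GAB2, a docking adaptor related to the MET partner GAB1, gave -0.75 (adjusted p = 0.426) and AKT1 gave 0.32 (adjusted p = 0.453). PTPN2, a phosphatase of receptor kinases, gave -0.28 (adjusted p = 0.473), and its other tested probe sets gave -0.42 to 0.49.

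**Figure D4:**
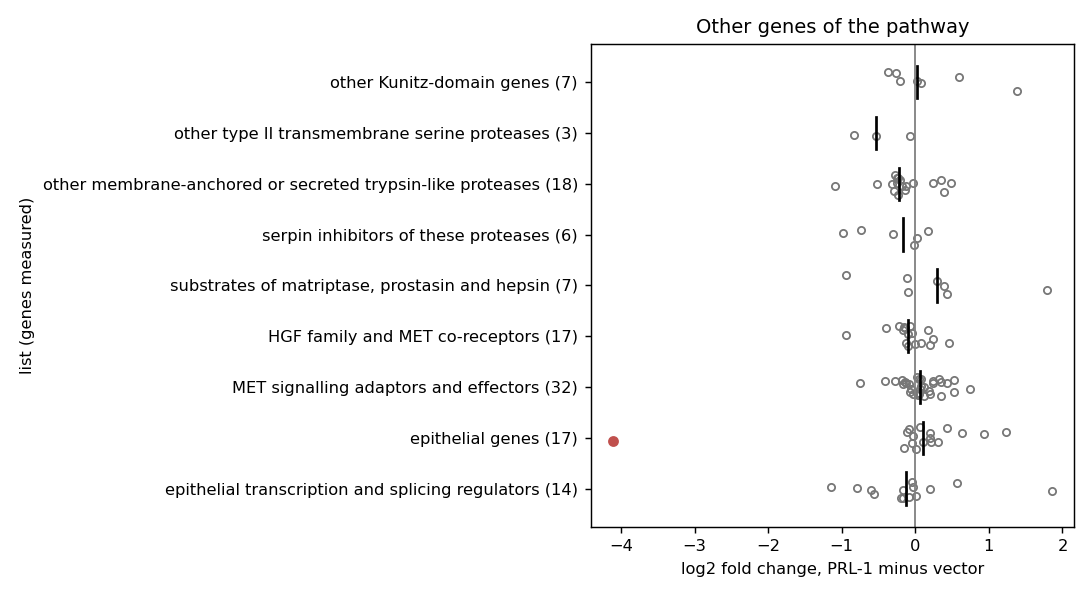
Log2 fold change (PRL-1 minus vector) of each measured gene in 9 lists, through its brightest tested probe set, with the list median as a black bar and the called gene in red. The called gene, MAL2, is drawn at its fitted value although its PRL-1 signals of 93.1 and 99.7 are under the lower limit, and the list medians lie between -0.54 and 0.29.

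SPINT2 is typical of epithelia, so epithelial genes were counted beside it. Of 24, 17 were measured, with 0 higher, 1 lower (MAL2), a median of 0.10 and 11 members above 0. Their summed signal was 34103 to 36959 on the vector arrays and 38128 to 40543 on the PRL-1 arrays, without overlap, and its part in the SPINT2 difference was not tested. The sum weighs bright probe sets most, with EPCAM alone at a mean of 8641 on the vector arrays and 11574 on the PRL-1 arrays. The sums of the Kunitz list (7576 to 10331 and 12399 to 14680), the substrates (12489 to 14652 and 15978 to 16019) and the MET signalling list (59871 to 62034 and 64838 to 67128) were likewise higher on the PRL-1 arrays without overlap. In the Kunitz list, APP alone had a mean of 3090 on the vector arrays and 7455 on the PRL-1 arrays. EPCAM is also counted among the substrates, so these sums are not independent. A separation of such sums does not show a change across a list. The sum of the other type II transmembrane serine proteases was lower without overlap (753 to 927 and 521 to 638). So was that of the HGF family and MET co-receptors (12374 to 12957.5 and 12002 to 12343). Among those not measured, CLDN3, CLDN4, CLDN7, TJP3 and RAB25 were under 100 on all arrays. CDH1, the epithelial cadherin, gave 158, 188 and 186 on the vector arrays and 403 and 431 on the PRL-1 arrays (1.24, adjusted p = 0.087). KRT8, a simple epithelial keratin, gave 999, 867 and 1583 on the vector arrays and 2141 and 2116 on the PRL-1 arrays (0.94, adjusted p = 0.257). Regulators of epithelial transcription and splicing had 14 of 22 measured, 0 called, 4 with an unadjusted p under 0.05 and a median of -0.12. ZEB1, which represses epithelial cadherin, gave 1252, 1375 and 1188 on the vector arrays and 759.8 and 710 on the PRL-1 arrays (-0.79, adjusted p = 0.082), and its other 3 tested probe sets gave -0.54 to -0.33. TWIST1, another regulator of the mesenchymal state, gave -1.15 (adjusted p = 0.093). TFAP2A, a further gene of this list, gave 0.56 (adjusted p = 0.325), and its other tested probe sets gave 0.49 and 0.05. Of the 14 measured, 4 were above 0, namely TFAP2A, ESRP1, KLF4 (0.20, adjusted p = 0.771) and KLF5 (0.01, adjusted p = 0.992). The epithelial regulators GRHL1, GRHL2, ELF3 and EHF were below 0, at -0.60 to -0.16 (adjusted p from 0.740 to 0.922). GRHL2 and EHF were under 100 on both PRL-1 arrays, near background. ESRP1, an epithelial splicing regulator, gave 25, 82.8 and 140 on the vector arrays, reaching down to background, and 265 and 219 on the PRL-1 arrays (adjusted p = 0.425), and it too passed the lower limit only with the PRL-1 arrays counted. Without vector replicate 3, 7 of the 139 list genes were called, namely CDH1, KRT8, EPCAM and AKT2 higher and MAL2, ZEB1 and TWIST1 lower, where 1.36% of all tested genes were called.

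Markers of the labelled line and of other cells were also checked, and 0 of those measured were called by limma, with unadjusted p under 0.05 for PAX2 alone. Of 8 embryonic kidney genes 7 were measured, among them PAX8 with 1577, 1629 and 2092 on the vector arrays and 1363 and 1595 on the PRL-1 arrays. PAX2, another regulator of the kidney lineage, gave -0.75 (adjusted p = 0.341), whereas its other tested probe set gave -0.13 (adjusted p = 0.889). NEFL, a neurofilament protein, gave 28915 to 34190 on all 5 arrays. The summed signals of fibroblast markers (5 of 8 measured) were 1583 to 2007 on the vector arrays and 1385 to 1789 on the PRL-1 arrays. For blood markers (2 of 6 measured) they were 629 to 979 and 649 to 657. For hepatocyte markers (4 of 5 measured) they were 500 to 781 and 488 to 794. For PECAM1, the 1 measured of 5 endothelial markers, they were 425 to 615 and 355 to 376. PTPRC, CD14 and SPI1 of blood, CDH5, KDR and TEK of endothelium, PDGFRB of fibroblasts and ALB of hepatocytes were under 100 on all arrays.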

How the data were processed

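The values analysed are MAS5 intensities, which the authors deposited after running affy with its default settings, scaled to a common trimmed mean (500 on all 5 arrays). Of 54675 probe sets, 62 controls were left out. Names came from the platform annotation, updated by gene identifier with the table of GRCh38.p14, and 41091 probe sets had 1 symbol. Presence calls were not used here.

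Probe sets at 100 or more on at least 2 arrays (33818) were fitted on the log2 scale by lmFit and eBayes with an intensity trend (limma 3.58.1, R 4.3.3), with group as the only term. Tests were two-sided, and a Benjamini-Hochberg adjusted p at or below 0.05 over all tested probe sets was a call. The fit was tested on simulated data. The brightest tested probe set stood for a gene in a list. In folds with arrays "set to 100", the mean of a group under 100 on all its arrays was replaced by 100. Such a fold is not a lower bound of the difference. Named genes are all members, the 5 nearest to SPINT2 by pattern and on each side by position, up to 4 per list with the smallest adjusted p, called genes, and markers under 100. GRHL1, GRHL2, ELF3, EHF, KLF4 and KLF5 were named for their direction. Some genes are in more than 1 list. Members and lists were chosen with earlier results of these data known. The number of arrays limits the precision. Alternatives covered the filter, log offset, normalization, replicate block, trend, array weights, the methods' t-test and each array left out.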

Additional observations from a re-analysis of the deposited data

How the results depend on the processing

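The log2 fold change of SPINT2 lay between 2.23 and 2.34 over all alternatives run. Of the probe sets of the other members, 0 were called by limma or by the methods' t-test under the alternatives run, and at most 2 had an unadjusted p under 0.05. The uncalled differences of ST14, PRSS8, HGF, SPINT1 through 235546_at and MET through 213807_x_at changed sign in some fits with 1 array left out. Of the 139 measured list genes, 1 was called in the main setting, 2 after median centring (MAL2 and CDH1), 7 with array weights, 9 with the replicate number as a block, and 1 to 7 with each array left out in turn, where 7 came without vector replicate 3. The methods' t-test called 0 of them and 0 of all 33818 probe sets, also at the looser threshold of the study but without its presence filter, with 13 and 2905 at an unadjusted p under 0.05, and the call of MAL2 was lost there (adjusted p = 0.113). The replicate numbers do not pair the arrays by the labels. The deviations of same-numbered arrays correlated at 0.06 and -0.06, and the block in effect leaves out vector replicate 3, which has no PRL-1 partner. With a PRL-1 array left out, the spread of the lone other array was taken from the vector group. No scaling moved the median over all tested probe sets by more than 0.1 on the log2 scale. Signals under 100 limit what can be read for HGFAC, ST14 and most HGF probe sets.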
